A study of Mus musculus with 12 samples.

Results

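SP4 thymocytes were compared with SP2 thymocytes, which sets the end of CD4 single positive (SP) maturation in the thymic medulla against one of its first stages. SP2 cells were Qa-2-6C10-CD69+ and SP4 cells were Qa-2+6C10-CD69-, where 6C10 names the antibody of the stain. Each subset has 3 arrays, so 6 of the series' 12 arrays carry the comparison, and all 45037 probe sets of the table entered it. The other 6 arrays measured SP1 (6C10+CD69+Qa-2-) and SP3 (6C10-CD69-Qa-2-). They enter only as part of the error estimate, in figures and some marker sums, and where SP3 is placed between SP2 and SP4. Every subset came from CD4+CD8-CD25-NK1.1- thymocytes of C57BL/6 mice aged 6-8 weeks, with the thymi of several mice pooled before the sort. The cells for the arrays were not gated on CD44, so Qa-2+ mature T cells that had come back to the thymus were not removed from SP4.

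After positive selection a CD4 SP thymocyte stays in the medulla, where it meets self antigens, loses the activation marker CD69 and the heat stable antigen CD24, and gains Qa-2, a class Ib MHC molecule. It acquires the capacity to respond to antigen by proliferation and cytokine release, and then leaves through blood vessels along a gradient of sphingosine 1-phosphate. The transcription factor KLF2 drives S1pr1, the receptor for that lipid, while CD69 holds the receptor inside the cell. The chemokine receptors CCR9 and CCR4 guide cells within the thymus, and L-selectin and integrins direct their entry into lymph nodes and tissues.

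Values are linear intensities of probe sets, in the order of replicates 1, 2 and 3, and differences are on the scale of log2(intensity + 16), SP4 minus SP2. Each of 18193 genes was read by 1 probe set, the one of highest mean. A gene rose or fell where limma gave an adjusted p under 0.05, and it is called changed where the fold also passed 2. Array medians lay between 30.5 and 32.8. The arrays of replicate 3 stood apart from the others in every subset (first principal component, 56.8% of the variance), and the replicate number is therefore used as a block in a second fit ("the block"), quoted as the blocked adjusted p where it alters a call. RNA of many cells was measured together, so a lower value can mean fewer cells of a type or less RNA per cell, and these cannot be told apart.

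The T cell markers were present on all 6 arrays. Cd3d, Cd3e and Cd3g, the CD3 chains of the T cell receptor (TCR), differed by -0.05, -0.04 and -0.04 (adjusted p = 1 each). The kinase Zap70 read 1462, 1519 and 756 in SP2 and 1426, 1445 and 733 in SP4, with its lowest value in both subsets on replicate 3. Cd4 read 935, 846 and 541 in SP2 and 612, 915 and 423 in SP4. Qa-2, used in the sort, is encoded by similar genes, and the probe set shared by H2-Q9 and H2-Q7 read 742, 403 and 421 in SP2 and 2561, 2119 and 1923 in SP4, a difference of 2.09 (standard error 0.38, adjusted p = 0.0321). All 3 SP4 arrays lay above all 3 SP2 arrays, the direction of the gate, which was set on surface protein and not on mRNA. CD69 was also used in the sort, but Cd69 mRNA read 854, 1010.4 and 493 in SP2 and 979.7, 609.9 and 738 in SP4, ranges that overlap, with a difference of 0.02 (standard error 0.33, adjusted p = 1). Cd8a, which the gate leaves out, ranged widely, at 272, 82.9 and 34.7 in SP2 and 358, 247 and 16.3 in SP4. Of 10 measured sort and stage markers, Cd24a fell, and with the block Spn, the gene of CD43, rose (0.76, adjusted p = 0.204, blocked 0.00422) and Cd5 fell (-0.66, adjusted p = 0.247, blocked 0.0138). Il2ra, the gene of CD25, stayed between 45.1 and 99.3 on these arrays. Cd8b1 (0.94, adjusted p = 0.978), the memory marker Cd44 (0.57, adjusted p = 0.458) and Thy1 (1.04, adjusted p = 0.619) did not pass.

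Of the 18193 genes, 119 rose in SP4 (0.654%) and 22 fell (0.121%). Of these, 86 were changed and higher (0.473%) and 17 were changed and lower (0.0934%). Each of the 103 moved the same way in 3 of 3 pairs of arrays with the same replicate number, and none had overlapping SP2 and SP4 arrays, while 5.56% of all genes had every SP4 array above every SP2 array and 7.29% had every one below. Over probe sets, 0.326% were changed and higher and 0.0577% changed and lower. An unadjusted p under 0.05 was found for 7.52% of all genes, the background for the counts at that level given further on. The median difference over all genes was -0.02. With the block, 445 genes rose (2.45%) and 178 fell (0.978%), including all 141 of the fit without it. Among the genes that the text names or the lists hold, 81 passed only with the block. Of these, 17 also passed with the block when the 6 arrays of SP2 and SP4 were fitted alone (Cxcr6, Fasl, Foxp3, Gbp3, Gpr83, Gzmb, Ifit3, Iigp1, Il6ra, Klrk1, Lax1, Nkg7, Nrp1, Rgs1, Smad7, Traf1 and Tyrobp), and 31 passed in the 8 arrays of replicates 1 and 2 without it. The rest of the 81 were not called with the block in 6 arrays.

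**Figure D1:**
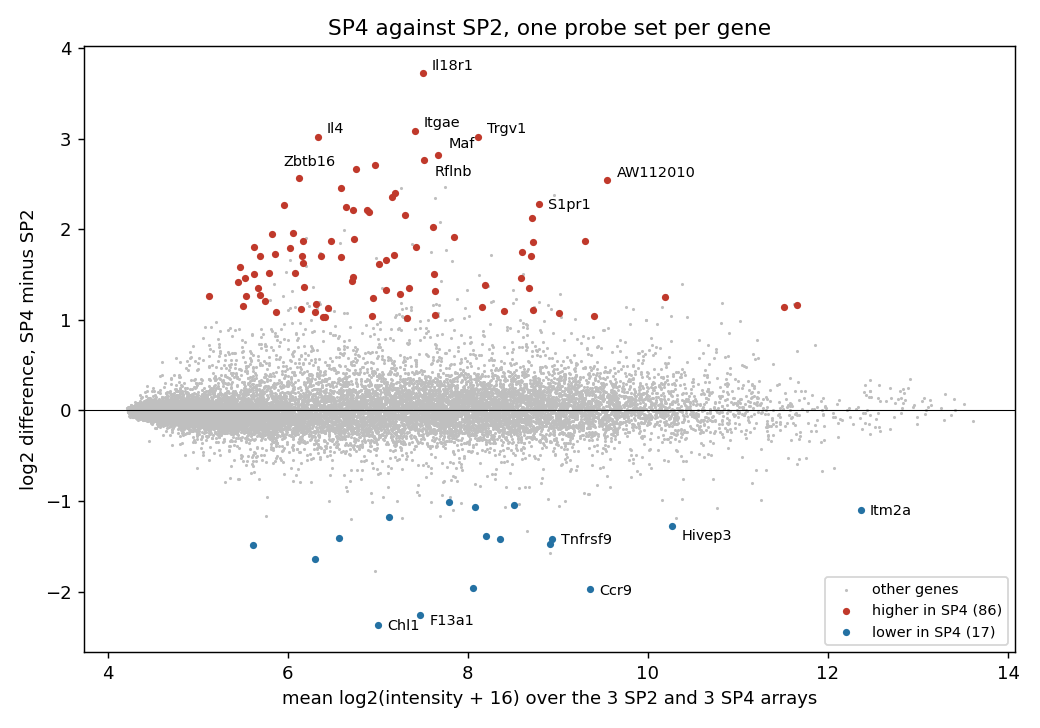
Difference between SP4 and SP2 (vertical axis, log2) against the mean log2(intensity + 16) of the 6 arrays (horizontal axis), 1 point per gene. The 86 changed genes higher in SP4 outnumber the 17 lower ones and reach a log2 difference of 3.72 (Il18r1), against -2.36 for the lowest (Chl1).

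The gene of largest rise was Il18r1, the ligand-binding chain of the interleukin 18 receptor, which read 48.0, 16.6 and 43.1 in SP2 and 440.0, 763 and 777 in SP4. Its difference was 3.72 (standard error 0.36, adjusted p = 0.000876), and every SP4 value was far above every SP2 value. Itgae, the alpha E integrin chain (CD103) that binds E-cadherin, read 82.3, 23.7 and 35.0 in SP2 and 486, 458 and 496 in SP4, and rose by 3.09 (standard error 0.43, adjusted p = 0.00792). Its SP4 values were close together while its SP2 values were spread, and SP2 replicate 1 was the highest of them. Il4, the type 2 helper cytokine, read 14.0, 12.7 and 10.2 in SP2 and 70.6, 237 and 536 in SP4 and rose by 3.02 (standard error 0.53, adjusted p = 0.029). Trgv1, a variable segment of the gamma TCR chain, read 157, 32.6 and 94.3 in SP2 and 578, 1191 and 671 in SP4 and rose by 3.02 (standard error 0.57, adjusted p = 0.0419). SP4 was above SP2 on every array for both, and Il4 was close to the low end of the intensity range in SP2. The transcription factor Maf rose by 2.82 (standard error 0.43, adjusted p = 0.0129), from 48.6, 33.1 and 124 to 405, 448 and 789.8. Zbtb16, which encodes PLZF, the factor of innate-like T cells, rose by 2.66 (standard error 0.30, adjusted p = 0.00198), from 31.7, 28.6 and 21.5 to 174, 317 and 301. Rflnb, a filamin-binding protein, read 63.3, 40.7 and 60.5 in SP2 and 532, 459.5 and 396 in SP4, and its difference of 2.76 (standard error 0.21, adjusted p = 0.000292) had the smallest p of the group.

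The other rising genes of largest fold were the lectin-like receptor Klrd1, or CD94 (2.71, adjusted p = 0.0413), the calcium-binding proteins S100a6 (2.56, adjusted p = 0.0132) and S100a4 (2.46, adjusted p = 0.0331), AW112010 (2.54, adjusted p = 0.0121), the scaffold protein Ahnak (2.40, adjusted p = 0.00198), Niban1 (2.36, adjusted p = 0.0019), S1pr1 (2.28, adjusted p = 0.00363) and the protease Klk1 (2.27, adjusted p = 0.0166). AW112010 was the brightest of them, at 402, 157 and 399 in SP2 and 1406, 2029 and 2024 in SP4. Ahnak read 50.3, 41.1 and 52.6 in SP2 and 292, 367 and 308 in SP4. Its 3 SP4 values, like those of AW112010, all lay above SP2. Of the 4 probe sets of Ahnak, 1 rose, and with their mean the difference was 0.74 (adjusted p = 0.00099). Of the 15 rising genes, the calls of Il18r1, Zbtb16, Rflnb, Ahnak, Niban1 and S1pr1 were kept whichever of the 12 arrays was left out. A single array decided the calls of Itgae (lost without SP2 replicate 2, adjusted p = 0.0522), AW112010 (lost without SP4 replicate 2, adjusted p = 0.0649), Maf (lost without SP2 replicates 1 or 2, adjusted p up to 0.0811), S100a6 (lost without SP2 replicates 1 or 2 or SP4 replicate 2, adjusted p up to 0.0925) and Klk1 (lost without SP2 replicates 1 or 2 or SP4 replicates 2 or 3, adjusted p up to 0.105). The same held for Il4 (lost without any array but SP1 replicate 3, SP3 replicates 1 and 3 and SP4 replicates 1 and 3, adjusted p up to 0.13), S100a4 (lost without any array but SP1 replicates 2 and 3, SP3 replicate 1 and SP4 replicate 1, adjusted p up to 0.169), Trgv1 (lost without any array but SP1 replicates 1 and 3, adjusted p up to 0.193) and Klrd1 (lost without any array but SP1 replicates 2 and 3, adjusted p up to 0.201).

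Chl1, an adhesion molecule of the L1 family, fell most, from 244, 344 and 249 in SP2 to 31.8, 46.0 and 45.4 in SP4, a difference of -2.36 (standard error 0.28, adjusted p = 0.00296). F13a1, the A subunit of coagulation factor XIII, a transglutaminase, read 266, 507 and 377 in SP2 and 52.7, 77.0 and 68.2 in SP4, and fell with a difference of -2.25 (standard error 0.31, adjusted p = 0.00651). The SP2 and SP4 ranges of both genes were well apart. Ccr9, the receptor of the thymic chemokine CCL25, read 1309, 1865 and 864 in SP2 and 353, 398 and 220.4 in SP4, a difference of -1.98 (standard error 0.31, adjusted p = 0.0161). Tnfrsf9 (4-1BB), a costimulatory receptor induced by TCR signals, read 864, 918 and 608 in SP2 and 288, 359 and 222 in SP4, a difference of -1.41 (standard error 0.21, adjusted p = 0.0119). Replicate 3 was the lowest array of each subset for both genes. Itm2a, a membrane protein induced at positive selection, was the brightest of the changed lower genes, at 7943, 9302 and 6211 in SP2 and 3437, 4052 and 3335 in SP4 (-1.10, adjusted p = 0.00997).

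The other falling genes of largest fold were Zcchc12 (-1.96, adjusted p = 0.0129), Asb2, a substrate adaptor of a ubiquitin ligase (-1.64, adjusted p = 0.0047), the peptide transporter Slc15a1 (-1.49, adjusted p = 0.0152), Lztfl1 (-1.48, adjusted p = 0.0195), C1qtnf12 (-1.42, adjusted p = 0.0467), the zinc finger gene Zfp821 (-1.41, adjusted p = 0.0174), Sytl2, which tethers secretory vesicles (-1.38, adjusted p = 0.0375), the zinc finger factor Hivep3 (-1.27, adjusted p = 0.0176), Pik3r3, a regulatory subunit of phosphoinositide 3-kinase (-1.18, adjusted p = 0.0331), and Lcmt1, which methylates the phosphatase PP2A (-1.06, adjusted p = 0.0425). Chl1, F13a1 and Asb2 kept their calls without any 1 array, and the other 12 of the 15 genes lost theirs when 1 array was left out. Those were Itm2a (lost without SP2 replicate 1, adjusted p = 0.0573), Tnfrsf9 (lost without SP2 replicates 1 or 2, adjusted p up to 0.071), Ccr9 (lost without SP2 replicates 1 or 2 or SP4 replicate 3, adjusted p up to 0.0836), Zcchc12 (lost without SP2 replicates 1 or 2 or SP4 replicate 2, adjusted p up to 0.0832), Slc15a1 (lost without SP2 replicates 2 or 3 or SP4 replicates 1 or 2, adjusted p up to 0.0939) and Zfp821 (lost without SP2 replicates 1 or 2 or SP4 replicates 1 or 3, adjusted p up to 0.0947). The others were Hivep3 (lost without SP2 replicates 1, 2 or 3 or SP4 replicates 1 or 2, adjusted p up to 0.0948), Lztfl1 (lost without SP2 replicates 1, 2 or 3 or SP4 replicates 1 or 2, adjusted p up to 0.107), Pik3r3 (lost without any array but SP1 replicates 1 and 3 and SP3 replicate 1, adjusted p up to 0.169), Sytl2 (lost without any array but SP1 replicates 1 and 3 and SP2 replicate 3, adjusted p up to 0.169), C1qtnf12 (lost without any array but SP1 replicate 3, adjusted p up to 0.173) and Lcmt1 (lost without any array but SP1 replicate 3, adjusted p up to 0.196). With the mean of all probe sets of a gene in place of 1, the calls of C1qtnf12 (-1.12, adjusted p = 0.0906), Hivep3 (-0.46, adjusted p = 0.364) and Itm2a (-1.33, adjusted p = 0.244) ended too, and of these differences only that of Hivep3 fell short of a fold of 2.

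Promoters of 6 genes that rose or fell are shown as examples of the interferon response element and of a KLF motif, and they were chosen after their matches were seen. They are RefSeq sequences of mouse build GRCm38.p6, 250 bases before to 50 after the start, 5′ to 3′ on the strand of the gene. Capitals mark a match, on either strand, to the first motif (GAAA, any 2 bases and GAAA again) in the first 3 and to the KLF motif, CCACACCC, in the last 3. Oas1a, an antiviral oligoadenylate synthetase, lies at chr5:120907476-120907775 on the minus strand, with 2 overlapping matches that end close to its start. Il4 lies at chr11:53618616-53618915 on the minus strand, and 1 of its 2 listed promoters is shown. Chl1 lies at chr6:103510626-103510925 on the plus strand. Il18r1 lies at chr1:40465371-40465670 (plus), 1 of 3 listed promoters, Itga4 at chr2:79255176-79255475 (plus), and Siglech at chr7:55767934-55768233 (plus), with 2 overlapping matches.
Oas1a: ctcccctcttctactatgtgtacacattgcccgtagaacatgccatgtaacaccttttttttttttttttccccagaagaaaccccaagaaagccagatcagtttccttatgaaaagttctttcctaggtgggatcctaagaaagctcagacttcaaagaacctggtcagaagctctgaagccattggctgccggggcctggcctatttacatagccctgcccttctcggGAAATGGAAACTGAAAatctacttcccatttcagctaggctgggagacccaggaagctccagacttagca
Il4: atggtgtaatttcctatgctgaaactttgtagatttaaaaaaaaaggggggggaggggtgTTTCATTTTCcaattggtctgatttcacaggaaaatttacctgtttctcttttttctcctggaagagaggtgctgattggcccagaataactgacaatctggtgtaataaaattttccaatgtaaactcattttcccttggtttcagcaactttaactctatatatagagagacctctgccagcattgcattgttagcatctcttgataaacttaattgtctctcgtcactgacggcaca
Chl1: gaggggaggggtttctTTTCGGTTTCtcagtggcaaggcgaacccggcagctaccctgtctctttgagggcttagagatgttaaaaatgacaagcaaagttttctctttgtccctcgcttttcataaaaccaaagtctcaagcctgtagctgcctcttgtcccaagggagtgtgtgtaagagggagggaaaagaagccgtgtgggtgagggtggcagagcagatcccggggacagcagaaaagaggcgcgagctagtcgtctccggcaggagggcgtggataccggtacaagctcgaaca
Il18r1: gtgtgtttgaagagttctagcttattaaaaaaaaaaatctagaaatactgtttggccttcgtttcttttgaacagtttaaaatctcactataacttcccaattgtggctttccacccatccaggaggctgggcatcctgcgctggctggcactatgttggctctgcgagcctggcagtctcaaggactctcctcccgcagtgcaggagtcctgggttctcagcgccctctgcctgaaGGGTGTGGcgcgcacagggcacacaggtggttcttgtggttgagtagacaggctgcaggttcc
Itga4: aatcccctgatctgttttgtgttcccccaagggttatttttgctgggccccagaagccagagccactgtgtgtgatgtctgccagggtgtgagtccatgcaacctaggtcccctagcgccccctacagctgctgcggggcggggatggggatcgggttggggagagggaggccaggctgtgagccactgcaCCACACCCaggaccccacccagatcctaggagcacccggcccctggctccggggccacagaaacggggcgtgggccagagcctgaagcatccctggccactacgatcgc
Siglech: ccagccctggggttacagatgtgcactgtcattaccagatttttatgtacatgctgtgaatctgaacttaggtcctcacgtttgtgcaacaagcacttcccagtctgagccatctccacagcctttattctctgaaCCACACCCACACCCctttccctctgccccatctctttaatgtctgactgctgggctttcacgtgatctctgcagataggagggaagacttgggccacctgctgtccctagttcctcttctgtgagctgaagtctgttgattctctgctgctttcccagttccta
A promoter was listed for 62 of the 86 changed genes that were higher, 14 of the 17 that were lower and 14452 of all genes measured. The interferon response element was in 6 promoters of the higher genes (9.68%), 1 of the lower (7.14%) and 3.63% of all, and the KLF motif in 8 of the higher (12.9%), 0 of the lower and 4.56% of all. TGTTTAC, a FOXO motif, was in 3 higher (4.84%), 0 lower and 3.4% of all. The AP-1 motif TGANTCA was in 5 higher (8.06%), 1 lower (7.14%) and 7.54% of all, and the CRE motif TGACGTCA was in 0 of both and 2.92% of all. These are counts of letters in the window, and they were not tested.

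Counts of list members here and below stand against 0.654% of all genes that rose and 0.121% that fell. With the block these shares were 2.45% and 0.978%. Of 21 measured genes of egress and lymph node homing, 3 rose and 0 fell, with a list median of 0.19 against -0.02 for all genes. S1pr1 read 169, 137 and 268 in SP2 and 1119.7, 845 and 933 in SP4, a rise of 2.28 (standard error 0.28, adjusted p = 0.00363). The repressor Klf3 read 205, 163 and 294 in SP2 and 778, 577 and 877 in SP4, a rise of 1.70 (standard error 0.24, adjusted p = 0.00877). S1pr4, another receptor for sphingosine 1-phosphate, read 186, 149 and 161 in SP2 and 427, 556 and 402 in SP4, a rise of 1.39 (standard error 0.17, adjusted p = 0.00313). In all 3 genes the arrays of SP4 lay above those of SP2, and within SP2 replicate 2 was the lowest array for each. A single array decided the call of Klf3 (lost without SP2 replicate 1, adjusted p = 0.052), and those of the others were kept. With the block 8 rose, the added ones being Il6ra (1.33, adjusted p = 0.391, blocked 0.000747), Klf2 (1.12, adjusted p = 0.211, blocked 0.00281), the integrin chain Itgb7 (0.95, adjusted p = 0.0755, blocked 0.00213), Foxo1, which acts above Klf2 (0.66, adjusted p = 0.724, blocked 0.0202), and the phosphatase Ptpn22 (0.63, adjusted p = 0.467, blocked 0.046).

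Among 13 chemokine and guidance receptors of the thymus, S1pr1 rose and Ccr9 fell, and the list median was -0.12. With the block 5 members fell and 3 rose. The added ones were Ccr4, the receptor of CCL17 and CCL22 (-0.79, adjusted p = 0.91, blocked 0.0108), Ccr8 (-0.70, adjusted p = 0.319, blocked 0.0319), Gpr83 (-1.07, adjusted p = 0.27, blocked 0.00515) and the semaphorin receptor Plxnd1 (-1.01, adjusted p = 0.359, blocked 0.00549) on the lower side and Cxcr4, the receptor of CXCL12 (0.79, adjusted p = 0.585, blocked 0.0214), and Nrp1 (1.68, adjusted p = 0.111, blocked 0.00515) on the higher side. Another probe set of Nrp1, at 46.6, 42.5 and 51.7 in SP2 and 129, 154 and 172 in SP4, passed without the block (1.41, adjusted p = 0.0255). Of 10 chemokine receptors of effector T cells, 2 rose. Cxcr3, the receptor of interferon-induced chemokines, read 54.2, 34.6 and 33.4 in SP2 and 278, 313 and 157 in SP4, a rise of 2.19 (standard error 0.26, adjusted p = 0.00287). Ccr2, the receptor of CCL2, read 23.3, 24.2 and 24.8 in SP2 and 114, 119 and 71.3 in SP4, a rise of 1.52 (standard error 0.18, adjusted p = 0.00274). Both calls were kept without any 1 array, and the SP4 arrays of both genes lay above all SP2 arrays. Cxcr5 (0.56, adjusted p = 0.0651, blocked 0.00469) passed only with the block. The probe sets of Cxcr6 gave different calls. The brightest overlapped between SP2 and SP4 and passed only with the block (2.00, adjusted p = 0.531, blocked 0.000214), while another, at 19.4, 10.3 and 7.30 in SP2 and 117, 123 and 63.2 in SP4, did not overlap and rose without it (2.03, adjusted p = 0.00584). Of the 7 measured migration genes that the study named, S1pr1 rose and Ccr9 fell, and with the block Klf2, Foxo1 and Cxcr4 also rose and Plxnd1 also fell. Ccr7, the receptor that draws cells to the medulla, did not pass in either fit (-0.12, adjusted p = 1, blocked 0.789). The study chose this list on these samples, so it is not independent evidence of a direction.

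**Figure D2:**
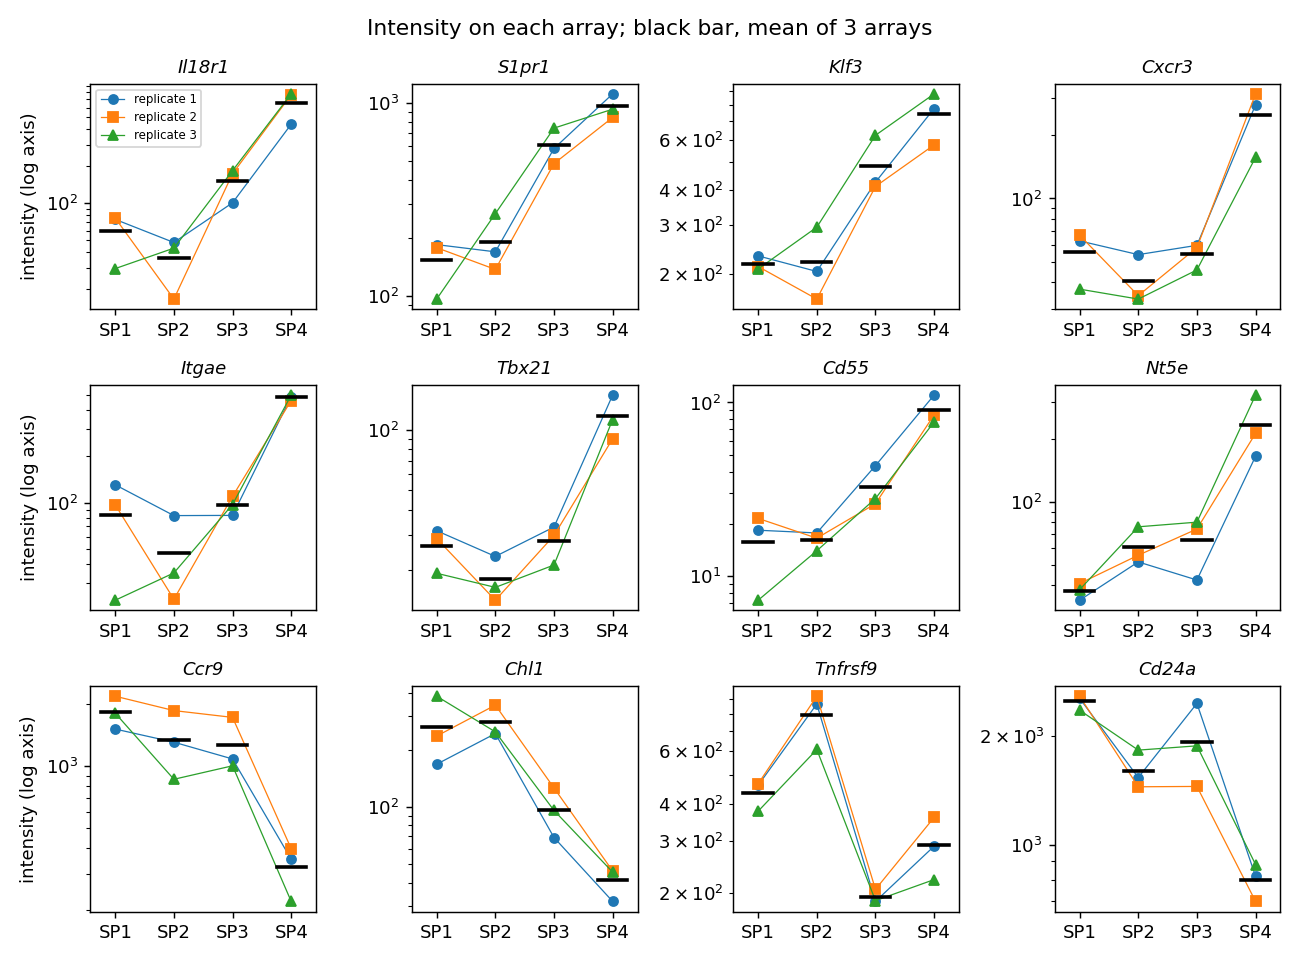
Intensity on each of the 12 arrays (vertical axis, log scale) for 12 genes in SP1 to SP4 (horizontal axis), with lines joining arrays of the same replicate number and black bars at the mean of 3 arrays. In each panel the 3 SP4 arrays lie apart from the 3 SP2 arrays, above them for the first 8 genes and below them for Ccr9, Chl1, Tnfrsf9 and Cd24a.

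Of 25 integrins and adhesion molecules, Itgae and Itga4 rose and Chl1 fell. Itga4, the alpha 4 chain that pairs with beta 1 or beta 7, read 321, 334 and 371 in SP2 and 746, 792 and 673 in SP4, a rise of 1.07 (standard error 0.19, adjusted p = 0.0289). With the block Itgb7, Itga6 (0.84, adjusted p = 0.138, blocked 0.00257), Selplg, a selectin ligand (0.63, adjusted p = 0.129, blocked 0.025), and Slamf6 (0.91, adjusted p = 0.465, blocked 0.0348) also rose, and Slamf1 (-0.75, adjusted p = 0.938, blocked 0.0143) and Cd2 (-0.59, adjusted p = 0.263, blocked 0.0349) fell. Of 10 GPI-anchored and Ly6 proteins, Cd55 and Nt5e rose and Cd24a fell. Cd55, which protects cells from complement, read 17.7, 16.5 and 14.0 in SP2 and 110.3, 84.8 and 77.2 in SP4, a rise of 1.72 (standard error 0.19, adjusted p = 0.00198). Nt5e (CD73), which makes adenosine from AMP, read 51.7, 55.7 and 76.2 in SP2 and 166, 213 and 326 in SP4, a rise of 1.66 (standard error 0.25, adjusted p = 0.0119). Of the 3 probe sets of Nt5e, 1 rose, and with their mean the difference was 0.63 (adjusted p = 0.00863). Cd24a, the heat stable antigen, read 1536, 1448 and 1829 in SP2 and 819, 698 and 883 in SP4, a difference of -0.99 (standard error 0.19, adjusted p = 0.0476). For all 3 genes the 2 subsets did not overlap. Of 21 sialyl and glycosyl transferases, St8sia6, which adds sialic acid to sialic acid, read 182, 212 and 195 in SP2 and 812, 639.8 and 657 in SP4, a rise of 1.75 (standard error 0.23, adjusted p = 0.00458), and Gcnt1, which branches O-glycans, rose by 0.92 (standard error 0.16, adjusted p = 0.0298). With the block Cmah (0.93, adjusted p = 0.068, blocked 0.00169) also rose and St3gal2 (-1.18, adjusted p = 0.292, blocked 0.0112) fell. Cd55 and St8sia6 kept their calls without any 1 array. Single arrays decided the calls of Nt5e (lost without SP2 replicates 1 or 2, adjusted p up to 0.076), Itga4 (lost without any array but SP1 replicates 1, 2 and 3 and SP3 replicates 1 and 3, adjusted p up to 0.145), Gcnt1 (lost without any array but SP1 replicate 3, SP2 replicate 3, SP3 replicate 3 and SP4 replicate 1, adjusted p up to 0.169) and Cd24a (lost without any array but SP3 replicates 1 and 2, adjusted p up to 0.219). Cd24a also lost its call with the mean of all its probe sets (adjusted p = 0.0881).

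Cytokine receptors rose in 3 of 27 measured genes. Beside Il18r1, its partner chain Il18rap read 39.7, 46.6 and 42.8 in SP2 and 129, 136 and 82.1 in SP4 and rose by 1.13 (standard error 0.17, adjusted p = 0.0118). Il2rb, the chain shared by the receptors of interleukins 2 and 15, read 117, 142 and 108 in SP2 and 279, 322 and 219.6 in SP4 and rose by 1.06 (standard error 0.20, adjusted p = 0.0434). Both were higher on each SP4 array than on any SP2 array. With the block Il6ra, Ifngr1 (0.87, adjusted p = 0.287, blocked 0.0147), Il1r2 (0.63, adjusted p = 0.123, blocked 0.0139) and Il17ra (0.60, adjusted p = 0.129, blocked 0.0157) also rose and Ifngr2 (-0.67, adjusted p = 1, blocked 0.0169) fell. Of 19 genes of the JAK and STAT pathway, which carries signals from these receptors, Socs3, a feedback inhibitor, rose by 1.43 (standard error 0.17, adjusted p = 0.00296), from 42.0, 49.3 and 52.4 to 146, 154 and 169, and Stat4 passed with the block (0.78, adjusted p = 0.144, blocked 0.00266). The call of Socs3 was kept without any 1 array. Single arrays decided those of Il18rap (lost without SP2 replicates 1 or 2 or SP4 replicate 2, adjusted p up to 0.0679) and Il2rb (lost without any array but SP1 replicate 3 and SP4 replicate 3, adjusted p up to 0.196), and that of Il2rb also ended with the mean of all its probe sets (adjusted p = 0.468).

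Of 22 cytokines and effector molecules, 3 rose, and the list median was 0.64. Beside Il4, Ifng, the type 1 cytokine interferon gamma, read 18.9, 8.61 and 11.9 in SP2 and 78.9, 61.6 and 171 in SP4 and rose by 1.95 (standard error 0.28, adjusted p = 0.0104). Ctsw, a cathepsin of cytotoxic lymphocytes, read 861, 534 and 878 in SP2 and 1487, 1984 and 1927 in SP4 and rose by 1.25 (standard error 0.21, adjusted p = 0.0223). SP4 lay above SP2 on all arrays for both, and Ifng, like Il4, was near the low end of the intensity range in SP2. With the block Nkg7 (1.84, adjusted p = 0.0552, blocked 0.00643), Gzmb (1.36, adjusted p = 0.0937, blocked 0.00822), Ctss (0.86, adjusted p = 0.133, blocked 0.0234) and Il13 (0.71, adjusted p = 0.172, blocked 0.0259) also rose. Single arrays decided the calls of Ifng (lost without SP2 replicate 2, adjusted p = 0.0741) and Ctsw (lost without SP2 replicates 1 or 2 or SP4 replicates 2 or 3, adjusted p up to 0.118).

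Transcription factors of thymocyte maturation rose in 4 of 37 measured genes, Maf, Zbtb16, Tbx21 and Klf3, and 0 fell. Tbx21 (T-bet), the factor of type 1 helper cells, read 23.4, 14.1 and 16.4 in SP2 and 149, 90.3 and 113 in SP4, a rise of 1.96 (standard error 0.19, adjusted p = 0.000797) that was kept without any 1 array. With the block Klf2, Foxo1 and Bhlhe40 (1.04, adjusted p = 0.143, blocked 0.0155) rose, and Sox4 (-0.98, adjusted p = 0.068, blocked 0.00119), Tox (-0.80, adjusted p = 1, blocked 0.0103) and Satb1 (-0.63, adjusted p = 0.162, blocked 0.0396), factors of developing thymocytes, fell. The Tox arrays overlapped, at 1078, 1585 and 105 in SP2 and 783, 743 and 49.7 in SP4, and the difference without SP4 replicate 3 was 0.39, of the other sign. Sox4 read 2877, 3839 and 3604 in SP2 and 1548, 1521 and 2157 in SP4, with every SP4 array below every SP2 array.

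Of 28 genes of the TCR signal and immediate early response, 0 rose and Tnfrsf9 fell. The list median of -0.04 was close to that of all genes. With the block 5 fell and 1 rose, against 0.978% and 2.45% of all genes. Nr4a1, whose transcription follows TCR signal strength, read 2183, 2478 and 2925 in SP2 and 1060.2, 877 and 1784 in SP4, a difference of -1.07, adjusted p = 0.24, blocked 0.00117. Cd5, a brake whose level tracks TCR signals, read 3379.9, 3821 and 2470.3 in SP2 and 2184, 2247 and 1648 in SP4, a difference of -0.66, adjusted p = 0.247, blocked 0.0138. In both, every SP4 array was below every SP2 array. Dusp5, an ERK phosphatase (-0.98, adjusted p = 0.137, blocked 0.0101), and the death factor Bcl2l11 (-1.19, adjusted p = 0.889, blocked 0.0151) fell with the block, while Myc (0.80, adjusted p = 1, blocked 0.0224) rose. Another probe set of Bcl2l11 fell without it (-1.12, adjusted p = 0.029).

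None of 25 negative regulators of TCR signalling passed with limma, where 11 had an unadjusted p under 0.05 (7.52% of all genes), and with the block 6 rose and 2 fell. The risers were Rgs1 (1.20, adjusted p = 0.493, blocked 0.0127), the adaptor Lax1 (1.03, adjusted p = 0.633, blocked 0.0014), the inhibitory receptors Ctla4 (1.03, adjusted p = 0.656, blocked 0.0138) and Pdcd1 (0.81, adjusted p = 0.344, blocked 0.0304), Ptpn22 and Ubash3b (0.60, adjusted p = 0.378, blocked 0.0138), and Cd5 and Tox were the lower ones. Ctla4 read 239.9, 311 and 576 in SP2 and 629.7, 525 and 1198 in SP4, and Pdcd1 128, 154 and 91.4 in SP2 and 153, 276 and 272 in SP4. In both, arrays of the 2 subsets overlapped, and SP4 was above SP2 in 3 of 3 pairs of the same replicate number. Of 24 costimulatory and TNF family genes, Tnfrsf9 fell. With the block Fasl (1.15, adjusted p = 0.971, blocked 0.00225), Tnfrsf25 (0.90, adjusted p = 0.15, blocked 0.00749), Tnfsf8 (0.86, adjusted p = 0.17, blocked 0.00355) and Tnfsf14 (0.51, adjusted p = 0.052, blocked 0.0105) rose with Ctla4 and Pdcd1, and Tnfsf11, the ligand RANKL (-0.84, adjusted p = 1, blocked 0.0157), fell. Of 19 apoptosis regulators none passed with limma (2 at an unadjusted p under 0.05, against 7.52% of all genes), and with the block Fasl rose and Bcl2l11 and Bcl2l1 (-0.58, adjusted p = 0.397, blocked 0.0132) fell.

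Of 29 measured interferon response genes 27 were above 0, with a median of 0.48, while 44.0% of all genes were above 0. Oas1a rose, from 226, 205 and 216 to 418, 512 and 520.3, a difference of 1.10 (standard error 0.16, adjusted p = 0.0109). With the block Ifit3 (1.71, adjusted p = 0.0614, blocked 5.47e-05), Ifit1 (0.86, adjusted p = 0.958, blocked 0.0221), Mx1 (0.85, adjusted p = 0.12, blocked 0.0128), Ifit2 (0.65, adjusted p = 0.398, blocked 0.0226) and Oasl2 (0.58, adjusted p = 0.248, blocked 0.018), antiviral proteins, rose too. Ifit3 read 179, 164 and 121 in SP2 and 591, 754 and 346 in SP4, with every SP4 array above every SP2 array. Of 9 interferon-inducible GTPases, which act on vacuoles of microbes, none passed with limma (4 at an unadjusted p under 0.05), and with the block Iigp1 (0.99, adjusted p = 0.678, blocked 0.00168), Gbp3 (0.84, adjusted p = 0.35, blocked 0.00948), Irgm2 (0.81, adjusted p = 1, blocked 0.00259) and Gbp8 (0.55, adjusted p = 0.389, blocked 0.0354) rose. A probe set shared by 2 further GTPases, Tgtp2 and Tgtp1, rose by 1.27 (standard error 0.23, adjusted p = 0.0331), and one shared by Gm4070 and Gvin1 by 2.18 (standard error 0.33, adjusted p = 0.0121). Single arrays decided the call of Oas1a (lost without SP2 replicate 2 or SP4 replicate 2, adjusted p up to 0.0623).

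Of 16 antigen presentation and MHC class I genes none passed with limma (3 at an unadjusted p under 0.05), and with the block the heavy chain H2-D1 rose (0.76, adjusted p = 0.374, blocked 0.0034). The mean of all probe sets of H2-D1 differed by 0.26 without the block (adjusted p = 0.742). Beyond these single genes, the probe set shared by H2-Q6 and H2-Q8 read 148, 84.7 and 175 in SP2 and 286, 321 and 391 in SP4, a difference of 1.24, adjusted p = 0.0546, blocked 0.00225. Of 15 GIMAP and Schlafen genes, which affect survival and quiescence of T cells, 0 passed with limma (4 at an unadjusted p under 0.05). Gimap3 (1.00, adjusted p = 0.109, blocked 0.00743) and Slfn8 (1.00, adjusted p = 0.652, blocked 0.00362) rose with the block. Of the 17 immune function genes that the study named, Il2rb rose and Cd24a fell, and with the block 10 rose and 2 fell, the added ones being Il6ra, Ctla4, Tnfrsf25, Tnfsf8, Ctss, Dtx1, Pdcd1, H2-D1 and Ppp3cc above and Ccr4 below. Of all genes, 2.45% rose and 0.978% fell with the block. Icos (0.59, adjusted p = 0.973, blocked 0.0774), Pik3cd (0.64, adjusted p = 0.61, blocked 0.0781), Tgfbr2 (0.61, adjusted p = 0.512, blocked 0.129), Malt1 (0.43, adjusted p = 1, blocked 0.246) and H2-K1 (0.35, adjusted p = 0.928, blocked 0.161) passed in neither fit. The list was chosen by the study on these samples and is not independent evidence of its direction.

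Signalling lists gave few calls, and their counts at an unadjusted p under 0.05 stand against 7.52% of all genes. Of 17 Notch pathway genes none passed with limma (6 at an unadjusted p under 0.05), and with the block Dtx1, a target and modulator of Notch, rose (0.83, adjusted p = 0.337, blocked 0.00371), as did Dtx4 (0.78, adjusted p = 0.0858, blocked 0.018). Dtx1 read 173, 161 and 281 in SP2 and 343, 305 and 469 in SP4. With the mean of all its probe sets, without the block, the difference of Dtx1 was 0.28 (adjusted p = 0.889). Of 15 TGF-beta genes 0 passed with limma (3 at an unadjusted p under 0.05), and with the block the inhibitors Smad7 (1.23, adjusted p = 0.674, blocked 0.000615) and Smurf2 (0.74, adjusted p = 0.16, blocked 0.0176) rose. Of 18 NF-kB genes 0 passed with limma (2 at an unadjusted p under 0.05), and Traf1 rose with the block (1.18, adjusted p = 0.264, blocked 0.000419), while a second probe set of Nfkbiz passed without it (0.91, adjusted p = 0.0351). Of 22 genes of calcium, PI3K and phosphatase signalling 0 passed with limma (4 at an unadjusted p under 0.05), and the calcineurin subunit Ppp3cc rose with the block (0.66, adjusted p = 0.187, blocked 0.0113).

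Rflnb was the 1 call among 31 actin and motility regulators, whose median was 0.13. Annexins, S100 proteins and related genes rose in 3 of 16 (S100a6, S100a4 and Ahnak) with a median of 0.80, and the block added Lgals3 (1.65, adjusted p = 0.184, blocked 0.0365) and S100a10 (1.14, adjusted p = 0.344, blocked 0.0308). S100a6 read 19.0, 5.81 and 15.02 in SP2 and 72.0, 213 and 227 in SP4, and S100a4 29.5, 20.0 and 27.1 in SP2 and 92.8, 276 and 351 in SP4. SP4 was above SP2 on every array in both, and SP4 replicate 1 was well below the other SP4 arrays. None of 18 glycolysis and nutrient transport genes, 13 cholesterol synthesis genes, 23 cell cycle genes and 13 housekeeping genes passed with limma or had an unadjusted p under 0.05. With the block the glycolytic enzyme Pkm (-0.49, adjusted p = 0.952, blocked 0.0286) and the tubulin Tubb5 (-0.53, adjusted p = 1, blocked 0.0489) fell. The summed intensity of the cell cycle list was 13391 to 19304 in SP2 and 12696 to 19019 in SP4, and the ranges overlapped.

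**Figure D3:**
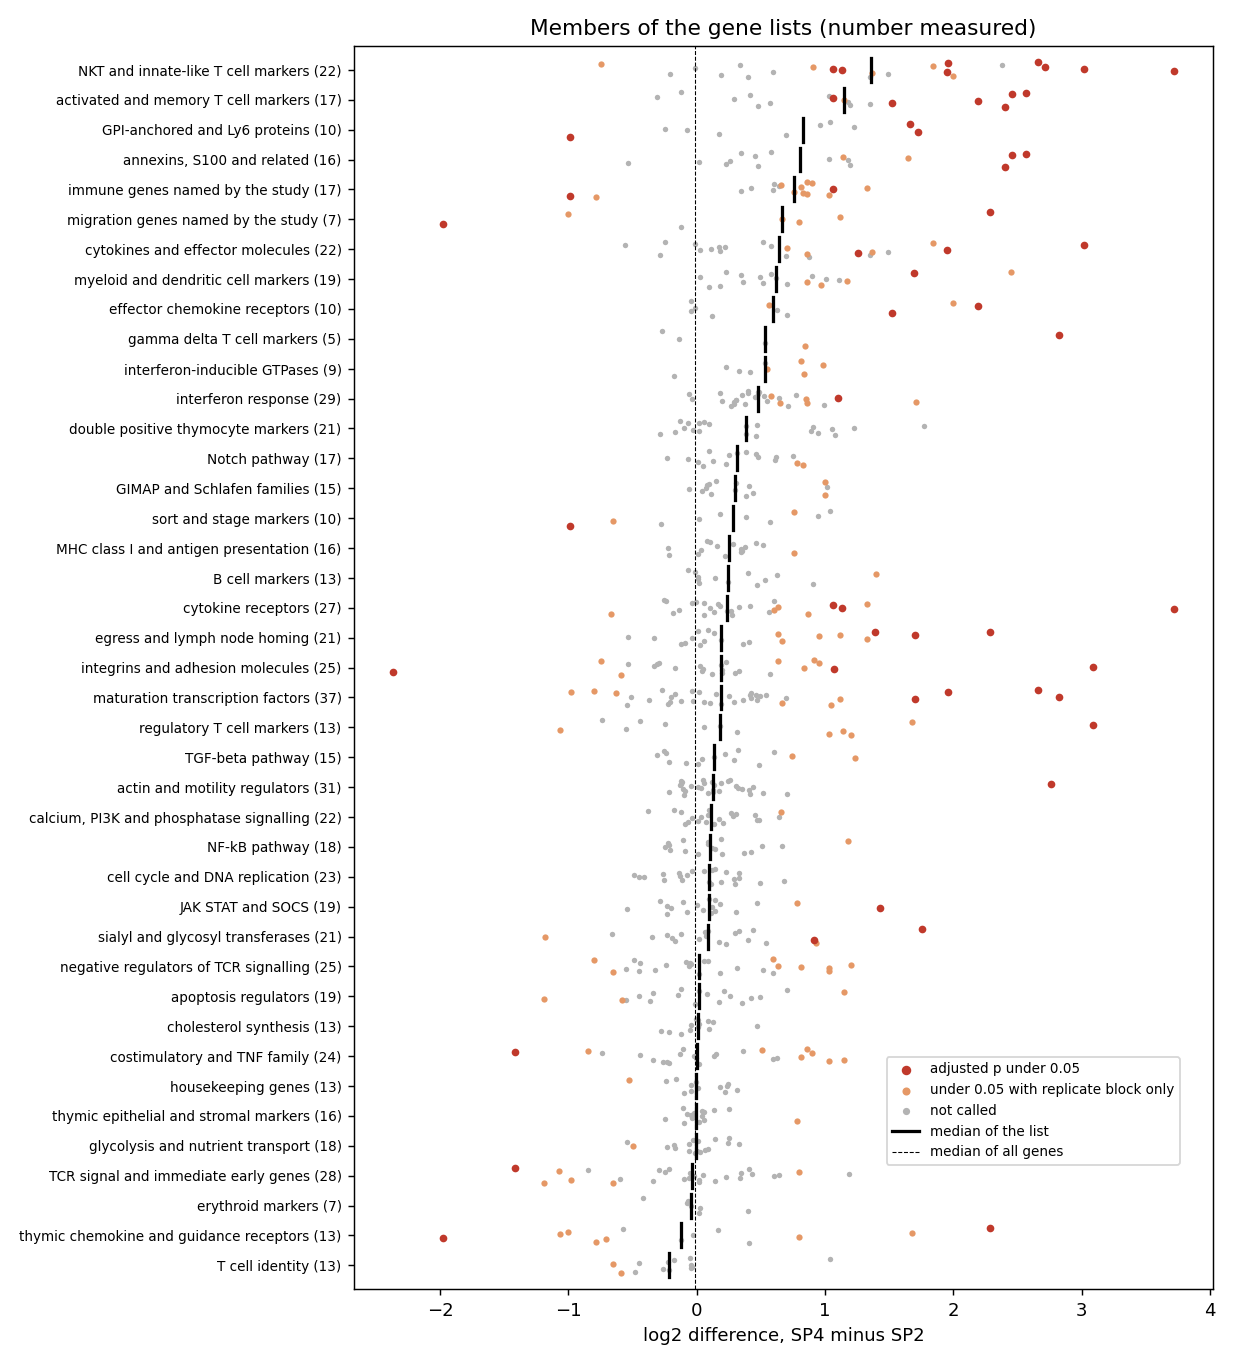
Log2 difference between SP4 and SP2 (horizontal axis) of the measured members of 41 gene lists (vertical axis, number measured in brackets), 1 point per gene, ordered by the list median. Called members in red lie mostly to the right, with the highest medians in the list of NKT and innate-like markers (1.36) and of activated and memory T cell markers (1.15), while the dashed line at -0.02 marks all genes.

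Genes that mark other T cell types were among those that rose. Of 22 NKT and innate-like markers 8 rose (Il18r1, Il4, Klrd1, Zbtb16, Tbx21, Ifng, Il18rap and Il2rb), and the block added Cxcr6 (likewise called without it by another probe set), Nkg7, Gzmb and Klrk1 (0.90, adjusted p = 0.416, blocked 0.0272) above and Slamf1 below. Of all genes, 0.654% rose, and with the block 2.45% rose and 0.978% fell. With the arrays of replicate 3 left out, where 1.26% of all genes rose and 0.253% fell, 10 NKT and innate-like markers rose. Their summed intensity was 3536 to 4971 in SP2 and 6644 to 9445 in SP4, which do not overlap, and without the 8 called members it was 3255 to 4685 and 4975 to 7073. Without these 8 the sum was 5001 to 5594 in SP1 and 4083 to 5477 in SP3, and both ranges overlap that of SP4. A probe set shared by Klra9 and Klra3, lectin-like receptors of NK and NKT cells, read 146, 49.7 and 59.3 in SP2 and 669, 387 and 384 in SP4 and rose by 2.37 (standard error 0.39, adjusted p = 0.0196). Of 17 activated and memory markers 6 rose (S100a6, S100a4, Ahnak, Cxcr3, Ccr2 and Il2rb), with a sum of 7289.9 to 8852 in SP2 and 9640.4 to 13588 in SP4, and Fasl was added by the block, while 7 rose without the arrays of replicate 3. Without the 6 called members the sum was 7022 to 8559 in SP2 and 8514 to 11979 in SP4, which overlap. Of 5 gamma delta markers Maf rose and Blk passed with the block (0.85, adjusted p = 0.613, blocked 0.0113), while 2, Il17re (-0.14, adjusted p = 1) and Sox13 (-0.27, adjusted p = 1), had every SP4 array below every SP2 array. The sum of the list was 377 to 442 in SP2 and 786 to 1112 in SP4, but without Maf it was 317 to 345 in SP2 and 323 to 434 in SP4, which overlap. Trgv1, the gamma TCR chain segment given above, is not in this list and rose by 3.02 (adjusted p = 0.0419). In 13 regulatory T cell markers Itgae rose, and the block added Nrp1 (called without it by another probe set), Capg (1.20, adjusted p = 0.0987, blocked 0.00897), Foxp3 (1.14, adjusted p = 0.194, blocked 0.000862) and Ctla4 above and Gpr83 below. Foxp3, the defining factor, read 31.8, 42.5 and 17.7 in SP2 and 66.2, 136 and 65.3 in SP4, while the list's sum overlapped, at 5245 to 8389 in SP2 and 4359.5 to 7350.1 in SP4. Il4, Klrd1, Ifng, Il18rap, Il2rb, S100a6, S100a4, Maf and Itgae each lost their call without SP2 replicate 2, among other arrays in most cases (highest adjusted p over single arrays, 0.0522 for Itgae to 0.201 for Klrd1). Of the 48 called genes that the text names or the lists hold, 29 lost their call without SP2 replicate 2, so this loss was not particular to these markers.

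Markers of cells outside the T lineage were measured as well. Of 19 myeloid and dendritic markers, all were above 0 and Siglech, a lectin of plasmacytoid dendritic cells, rose, from 47.8, 32.7 and 33.5 to 168, 180.1 and 128, a difference of 1.70 (standard error 0.26, adjusted p = 0.0128). With the block Tyrobp (2.45, adjusted p = 0.0769, blocked 0.0182), Fcer1g (1.17, adjusted p = 0.182, blocked 0.0402), both signalling adaptors shared with NK cells, Cd68 (0.97, adjusted p = 0.198, blocked 0.0269) and Ctss also rose. The sum of the list was 2194 to 3774 in SP2 and 4883 to 7882 in SP4 (2161 to 3726 and 4755 to 7702 without Siglech), while Itgam, the CD11b of macrophages, read 13.04, 13.2 and 16.3 in SP2 and 12.9, 15.7 and 15.8 in SP4, close to the low end of the arrays in both. In SP1 the myeloid and dendritic sum was 2244 to 6214, which overlaps SP4, and in SP3 it was 3341 to 4064. The mean of all probe sets of Ighm, a B cell marker, differed by 0.39 without the block (adjusted p = 0.74). B cell markers had no call with limma (0 of 13, 4 at an unadjusted p under 0.05), and Ighm passed with the block (1.40, adjusted p = 0.621, blocked 0.036). Their sums overlapped, at 826 to 1667 in SP2 and 1534 to 3743 in SP4, and Cd79a, a chain of the B cell receptor, read 39.5, 21.8 and 26.0 in SP2 and 29.3, 52.0 and 31.8 in SP4. Double positive thymocyte markers (0 of 21 with limma and 0 at an unadjusted p under 0.05) had sums of 4983 to 6614 in SP2 and 4893 to 8599 in SP4. Thymic epithelial and stromal markers (0 of 16, 1 at an unadjusted p under 0.05) and erythroid markers (0 of 7, 1 at an unadjusted p under 0.05) had sums of 453 to 793 in SP2 and 528 to 817 in SP4 and of 1051 to 1356 in SP2 and 882 to 1014 in SP4, and the endothelial cadherin Cdh5 passed with the block (0.78, adjusted p = 0.166, blocked 0.0161). Of 13 T cell identity genes 0 passed with limma (5 at an unadjusted p under 0.05), Cd2 and Cd5 fell with the block, and the sum was 32686 to 36011 in SP2 and 29238 to 31437 in SP4. The part of other cell types in the differences above was not tested. Single arrays decided the call of Siglech (lost without SP2 replicates 2 or 3 or SP4 replicate 2, adjusted p up to 0.0836).

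**Figure D4:**
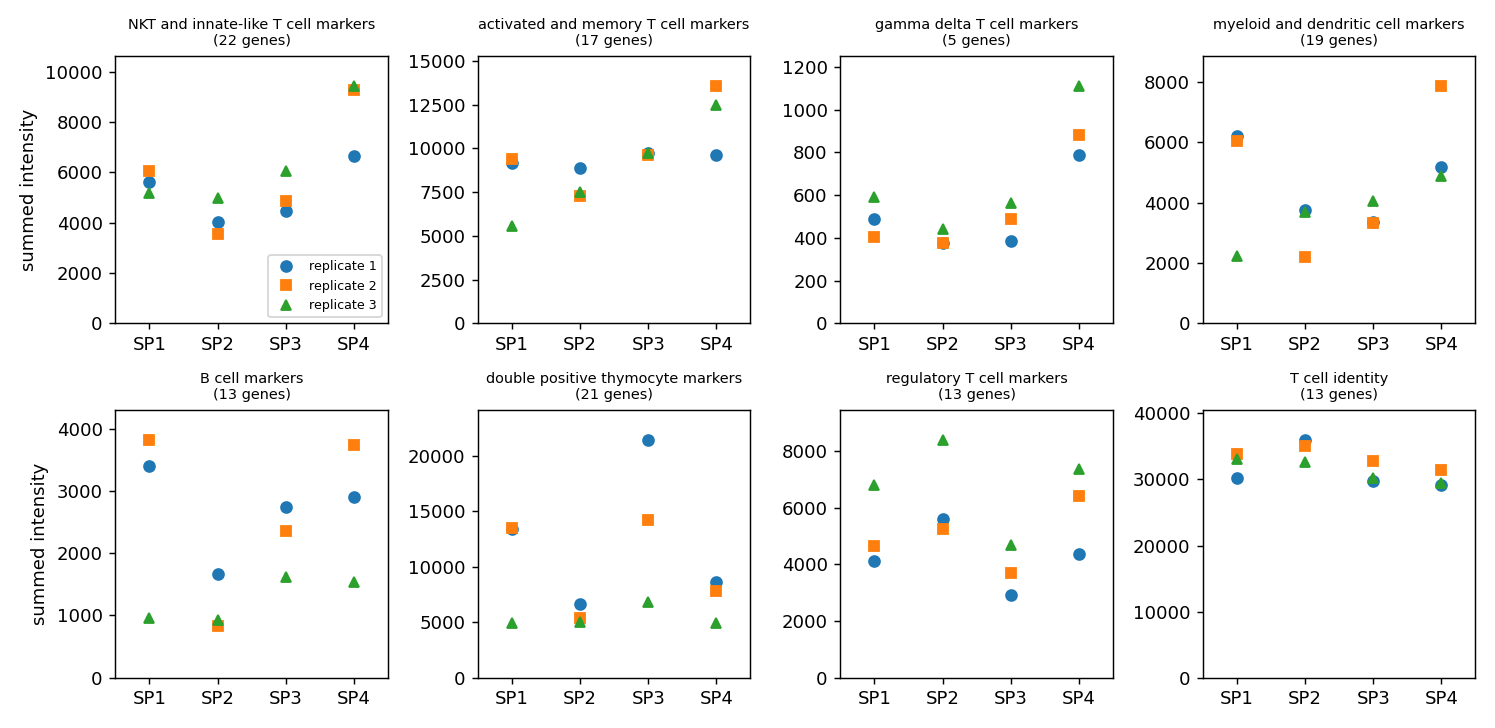
Summed intensity (vertical axis, from 0) of 8 marker lists on each of the 12 arrays, by subset (horizontal axis), 1 point per array with the replicate number as its shape. The gamma delta list does not hold Trgv1. The NKT, activated and memory, gamma delta and myeloid sums are higher on all 3 SP4 arrays than on all 3 SP2 arrays, although without their called members the activated and memory and the gamma delta sums overlap, the B cell, double positive and regulatory sums overlap, and the T cell identity sum is lower in SP4.

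SP3, which lacks both CD69 and Qa-2, lies between the 2 subsets in the sort. Its arrays were used to split each difference into the step where CD69 is lost (SP3 minus SP2) and the step where Qa-2 is gained (SP4 minus SP3). The SP3 vs SP2 and SP4 vs SP3 differences share the SP3 arrays, and each shares arrays with SP4 vs SP2, so they are given side by side. For the 86 higher changed genes, the SP3 mean stood at a median of 33.0% of the way from SP2 to SP4 (quartiles 19.0 and 44.5), and for the 17 lower ones at 59.2% (quartiles 43.6 and 70.3). SP3 was past the midpoint in 10 of the 86 and in 11 of the 17. Genes that were already partly moved in SP3 included S1pr1 (SP3 minus SP2 1.61, SP4 minus SP3 0.67) and Klf3 (1.10 and 0.60), and Chl1 on the lower side (-1.40 and -0.96). The second value was the larger for Ifng (0.03 and 1.92), Klrd1 (0.43 and 2.29) and Itgae (0.94 and 2.15). For these 6 genes the difference between the 2 steps did not pass, with or without the block (blocked adjusted p = 0.165 for Ifng, 0.54 for Klrd1, 0.641 for Itgae and 0.601 to 0.779 for the other 3).

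Neither SP3 vs SP2 nor the test of the difference between the steps, (SP4 minus SP3) minus (SP3 minus SP2), gave a call with limma over the 45037 probe sets (1359 and 1330 at an unadjusted p under 0.05), and 39 genes rose (0.214%) and 2 fell (0.011%) in SP4 vs SP3. With the block 20 genes rose (0.11%) and 31 fell (0.17%) in SP3 vs SP2, and 221 rose (1.21%) and 51 fell (0.28%) in SP4 vs SP3. In the 8 arrays of replicates 1 and 2 these counts were 53 (0.291%) and 6 (0.033%) for SP3 vs SP2 and 120 (0.66%) and 28 (0.154%) for SP4 vs SP3. With the block 66 probe sets passed the step test, and by gene the step difference was positive in 20 (0.11%) and negative in 15 (0.0824%). The sign does not say which step was the larger, since a gene that fell mostly in the second step, such as Ccr9, is negative. The balance of signs was the opposite in the 8 arrays, with 6 positive genes (0.033%) and 41 negative ones (0.225%). Among those passing with the block, Tnfrsf9 read lower in SP3 than in SP2 and higher again in SP4, at 864, 918 and 608 in SP2, 188, 206 and 189 in SP3 and 288, 359 and 222 in SP4, a step difference of 2.45 (adjusted p = 0.00159 with the block). Its first step passed with the block (-1.93, blocked adjusted p = 0.000101). Its second step passed in neither fit (0.52, adjusted p = 0.941, blocked 0.0945). Ccr9 differed little between SP2 and SP3 and was lower after it, with values of 1085, 1728 and 1005 in SP3 and steps of -0.05 and -1.92 (step difference -1.87, adjusted p = 0.0326 with the block). Il2rb had steps of -0.32 and 1.38 (1.69, adjusted p = 0.0128), and Nt5e of 0.06 and 1.60 (1.54, adjusted p = 0.0468). Bhlhe40 had a negative first step and a positive second one, at -0.61 and 1.65 (2.26, adjusted p = 0.0321). Over all 12 arrays these p-values need the block. In the 8 arrays Tnfrsf9 (adjusted p = 0.00967) and Bhlhe40 (0.0211) passed the step test without it, and Ccr9 (0.337), Il2rb (0.0886) and Nt5e (0.255) did not.

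**Figure D5:**
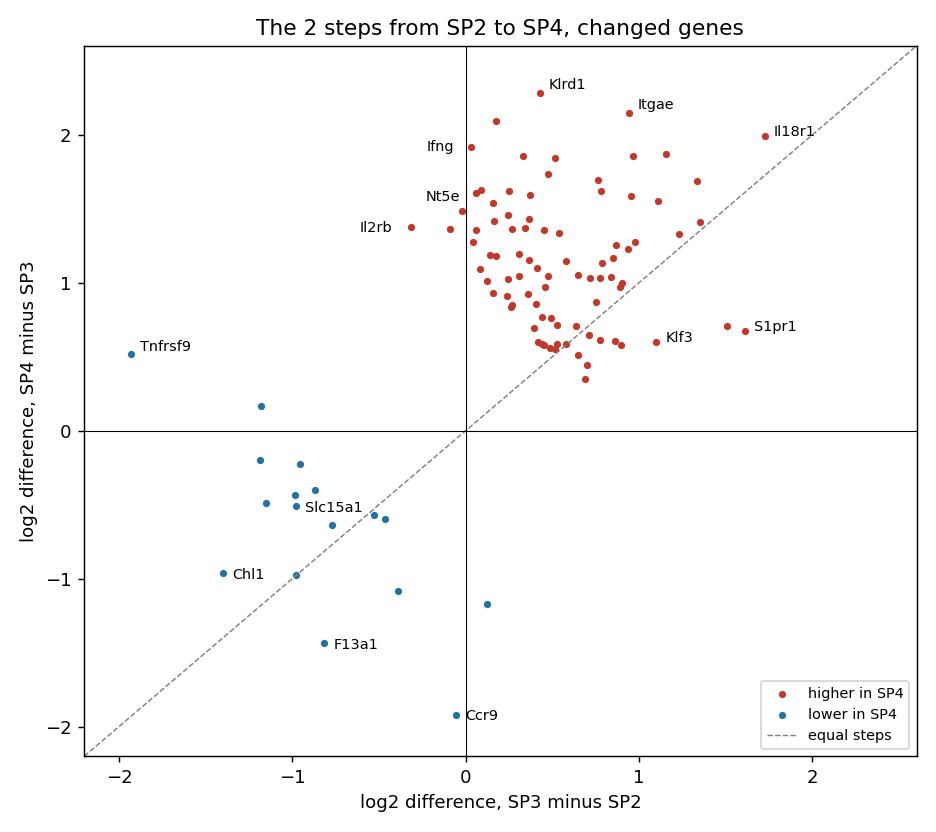
SP4 minus SP3 (vertical axis, log2) against SP3 minus SP2 (horizontal axis, log2) for the 86 changed genes higher in SP4 (red) and the 17 lower (blue), with equal steps on the dashed line. The axes share the SP3 arrays. Most red points lie above the line, where the second step is the larger, and Tnfrsf9 and Ccr9 lie at opposite ends of the lower genes.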

How the data were processed

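RNA of sorted CD4 SP thymocytes was hybridised to 12 Affymetrix Mouse Genome 430 2.0 arrays, 3 for each of SP1 to SP4. The deposited table holds linear intensity values of 45037 probe sets, background-corrected and normalized by the authors. RMA is the method in the paper's text and MAS5 the one in the submitters' notes. Scans were read with Affymetrix GeneChip Operating Software. Neither a genome build nor an annotation release for the probe sets was given in the sources used here. Array depth has no counterpart in read counts, and the 3 arrays per subset limit the precision. The labels number the replicates and call them biological. P-values measure the spread between these arrays, which can hold technical as well as biological differences.

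By the platform annotation 34945 probe sets name 1 gene, 932 several and 9160 are unnamed here. For each of 18193 genes the brightest probe set on average stood for the gene, and one ending in _x_at was taken only for the 100 genes with no other. An offset of 16 was added before log2, and limma 3.58.1 in R 4.3.3 fitted 1 mean per subset over the 12 arrays together (8 residual degrees of freedom, eBayes with a mean-variance trend, two-sided). P-values were adjusted over all probe sets by the Benjamini-Hochberg method. The study's SAM test, unpaired, was not run, and its thresholds (5% and a fold of 2) were kept. On simulated data the fit recovered 30 of 100 probe sets changed by 2-fold and 75 of 100 changed by 4-fold, with 6 false calls. The simulated noise was normal and independent between arrays and probe sets, without a shift of replicate 3, and no dim probe sets were changed. These counts are therefore not the error rate of the real arrays.

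The study codes its array repeats separately, and each of the 3 repeats matched 1 replicate number. After subtracting subset means, arrays that share a number correlated with each other at 0.279 to 0.883, while replicate 3 correlated with replicates 1 and 2 at -0.812 to -0.388. Replicates 1 and 2 of different subsets correlated at 0.178 to 0.729, so the numbers set replicate 3 apart but hardly part 1 from 2. SP2 replicate 2 correlated better with SP4 replicate 1 (0.729) than with SP4 replicate 2 (0.279). Because replicate 3 stood apart, a second fit took the number as a block (6 residual degrees of freedom).

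The comparison and the 41 gene lists were chosen with earlier results of these data known. The text names the sort markers and the genes of the study's lists, the 15 higher and 15 lower changed genes of largest fold with the same direction in 3 of 3 pairs, and list members that passed or have the largest fold, while Cd79a and Itgam were added as defining markers. List members are given by counts and medians, with no test of a list. Promoters are those of the RefSeq table, and 1 per listed start was searched on both strands. The alternatives were the block, the 6 or 8 arrays alone, offsets of 1 and 64, a filter on means of at least 64, quantile normalization, no trend, the mean of all probe sets and leaving out each array.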

Additional observations from a re-analysis of the deposited data

How the results depend on the processing

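Without the block, 147 probe sets were changed and higher and 26 changed and lower, and 119 genes rose and 22 fell. With the replicate block these counts were 248, 65, 445 and 178, and the step difference went from 0 to 66 probe sets. The 8 arrays of replicates 1 and 2 alone gave 261, 60, 230 and 46 and a step difference of 105. The 6 arrays of SP2 and SP4 alone gave 59, 8, 37 and 5. With an offset of 64 the probe sets were 88 and 14, and with a filter on means of at least 64, 71 genes rose. Leaving out 1 array gave 71 to 169 probe sets higher, 5 to 29 lower, 44 to 145 genes that rose and 5 to 29 that fell. The lowest counts came without SP2 replicate 1 (81 and 6 probe sets, 52 and 5 genes), SP2 replicate 2 (71 and 5, 44 and 5) and SP4 replicate 2 (79 and 11, 55 and 10). Fewer probe sets and genes were lower without SP1 replicate 2 (15 and 13), SP3 replicate 2 (16 and 14), SP4 replicate 1 (10 and 9) and SP4 replicate 3 (13 and 13). The cause was not tested. Of 48 called genes that the text names or the lists hold, 48 kept their call with the block or quantile normalization, 47 in 8 arrays, 45 with either offset, 42 without the trend, 43 with the mean of all probe sets 20 in 6 arrays and 44 in 6 arrays with the block (not Cd24a, Ctsw, Lcmt1 and Sytl2), and none changed direction. Of 81 genes called only with the block, 17 were called with it in 6 arrays and 31 in 8 arrays, 11 of them in both. With the mean of all probe sets some calls were kept at a smaller difference, such as Chl1 (-1.16), Klk1 (1.20), Klf3 (0.88) and Ccr2 (0.87). Itga4 (0.57) and Gcnt1 (0.49) were smaller too, while Socs3 was larger (1.99). For 7 list members without a call another probe set passed (Bcl2l11, Cxcr6, Fcrla, Il21, Myo1f, Nfkbiz and Nrp1). The block ended none of the calls made without it, and changed no other call of the genes named than those given with their blocked p. Differences that were not called and turned sign were that of Cd69 (-0.26 in 8 arrays, -0.025 with quantile normalization, -0.28 to 0.22 when 1 array was left out, below 0 for SP2 replicate 3 at -0.28 and SP4 replicate 1 at -0.16), that of Cd8a (-0.29 to 1.47, below 0 for SP2 replicate 3 at -0.20, SP4 replicate 1 at -0.29 and SP4 replicate 2 at -0.04), that of Il2ra (-0.11 to 0.35, below 0 for SP4 replicate 2) and that of Tox (-1.95 to 0.39, above 0 for SP4 replicate 3). With 3 arrays per subset, small folds at low intensity are the least certain.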
